A study of Mus musculus with 12 samples.

Results

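A set of 10 genes of eicosanoid synthesis was followed across 3 groups of injured mouse spinal cord: Alox5, Alox5ap, Lta4h and Ltc4s of the leukotriene branch, the lipoxygenases Alox12 and Alox15, and Ptgs1, Ptgs2, Ptges and Hpgds of the prostanoid branch. They were chosen by name, and all 10 were found among the 57180 genes of the deposited tables. The list was drawn up with results of these libraries known, in which Alox15 stood among the larger increases of the group ovariectomized 8 weeks before injury, so the values of that comparison are given as a description. Bulk RNA was sequenced from female C57BL/6J wild-type mice, all of which received a clip compression injury at spinal level T9-T10. Tissue was the lesion with a margin of about 0.5 cm on each side, taken 7 days after injury. The SCI7 group had the injury alone, OVX2_SCI7 was ovariectomized 2 weeks ahead of the injury, and OVX8_SCI7 8 weeks ahead of it. Each group holds 4 libraries, which the labels call biological replicates of 1 batch without tying them to animals. The labels give an age of 8 weeks for all mice and do not say at which step, and no sham-operated or uninjured cord was analysed here.

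Eicosanoids are short-lived lipid signals made from arachidonic acid after a phospholipase frees it from membranes. The 5-lipoxygenase encoded by Alox5, helped by the membrane protein that Alox5ap encodes, makes leukotriene A4, which Lta4h turns into the neutrophil attractant leukotriene B4 and Ltc4s into the cysteinyl leukotrienes. The cyclooxygenases Ptgs1 and Ptgs2 make prostaglandin H2, from which Ptges makes prostaglandin E2 and Hpgds prostaglandin D2, while Alox12 and Alox15 add oxygen at other carbons of the fatty acid. In injured nervous tissue these enzymes are found mostly in infiltrating leukocytes, microglia, macrophages and vessels. The deposited annotation lists a lipoxygenase domain together with a PLAT domain for Alox5, Alox12 and Alox15, and the same MAPEG membrane domain for Alox5ap and Ptges.

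Promoters were in the RefSeq table (build GRCm38.p6) for 8 of the 10 genes, Alox5ap and Alox15 not being in it. Those of Alox5, Ptgs2 and Ptges are shown as the entry enzymes of the leukotriene and prostanoid branches and the last step to prostaglandin E2. Each is the 250 bases before the gene's start, at chr6:116461179-116461428 on the minus strand for Alox5, chr1:150099781-150100030 on the plus strand for Ptgs2 and chr2:30903298-30903547 on the minus strand for Ptges. Capitals mark matches to the motifs searched on both strands.
Alox5: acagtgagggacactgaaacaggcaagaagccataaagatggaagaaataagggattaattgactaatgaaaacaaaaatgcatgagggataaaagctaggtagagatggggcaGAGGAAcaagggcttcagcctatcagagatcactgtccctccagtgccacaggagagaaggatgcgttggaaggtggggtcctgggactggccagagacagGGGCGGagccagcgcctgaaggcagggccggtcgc
Ptgs2: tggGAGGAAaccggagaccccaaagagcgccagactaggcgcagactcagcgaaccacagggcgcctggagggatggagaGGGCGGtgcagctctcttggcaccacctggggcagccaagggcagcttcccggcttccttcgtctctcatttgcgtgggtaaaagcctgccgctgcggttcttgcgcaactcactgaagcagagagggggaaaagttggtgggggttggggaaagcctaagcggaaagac
Ptges: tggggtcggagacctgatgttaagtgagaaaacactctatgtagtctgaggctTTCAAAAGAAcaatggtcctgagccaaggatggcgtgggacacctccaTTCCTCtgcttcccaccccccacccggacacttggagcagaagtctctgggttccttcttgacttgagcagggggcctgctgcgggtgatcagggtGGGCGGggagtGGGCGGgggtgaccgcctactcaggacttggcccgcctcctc
The GC box bound by Sp1 (GGGCGG) was found in the promoters of 4 of the 8 genes, Alox5, Alox12, Ptgs2 and Ptges, and in 32.7% of the 32851 promoters of this length in the table. Ptges held 2 of them, starting 53 and 42 bases before the start site, and Alox5 held 1 at 35 bases. The PU.1 core (GAGGAA, printed as TTCCTC where it lies on the other strand) was in 7 of the 8 promoters, all but that of Ltc4s, against 23.3% of the table. A STAT6-type motif (TTC and GAA with 4 bases between them, the same on both strands) was in that of Ptges alone, 197 bases before the start, and in 5.85% of the table. The oestrogen response element (GGTCA and TGACC with 3 bases between them) was in none of the 8 and in 0.0639% of the table. None of the printed matches overlap, and a match is a stretch of letters, not a bound site.

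The 12 libraries held 18222809 to 31781728 counts, so 3 counts correspond to 0.0944 to 0.165 CPM, read counts scaled to a common library size. Libraries differed in how counts leaned with the GC content of a gene. The rank correlation across 15087 protein-coding genes between GC content and a library's deviation from each gene's mean, in which genes are not independent, was -0.80 to -0.49 in SCI7, -0.41 to 0.51 in OVX2_SCI7 and 0.15 to 0.83 in OVX8_SCI7. Mitochondrial transcripts took 5.35 to 9.35%, 2.36 to 8.33% and 2.2 to 3.36% of counts in the same order. Replicate 1 of OVX2_SCI7 was on the SCI7 side of both measures, and replicate 2 of that group held 127.5 CPM of the sensory neuron gene Pirt against 0.18 to 22.2 in the other 11. Differences between groups are therefore also given from a fit with a correction (GC and length offset) that removes, library by library, the lean of counts with GC content and transcript length. The lean did not overlap between SCI7 and OVX8_SCI7, so lean and group cannot be told apart there. The offset can also take out a group difference that follows GC content or length.

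Levels across genes are compared in TPM, the deposited abundance that is corrected for transcript length. Alox5ap was the most abundant of the 10 transcripts at 87.2 ± 51.7 TPM in SCI7, 71.0 ± 41.8 in OVX2_SCI7 and 94.2 ± 26.3 in OVX8_SCI7 (SD, n = 4 each). Lta4h followed at 49.8 ± 7.14, 47.5 ± 7.09 and 54.2 ± 7.88 TPM (SD, n = 4 each), and Hpgds at 31.6 ± 13.3, 32.7 ± 10.9 and 33.6 ± 5.42. Ptgs1 and Ltc4s came next and changed places between SCI7 and the ovariectomy groups, with overlapping ranges in each group. Ptges, Alox5 and Ptgs2 followed in that order, with means of 12.6, 6.57 and 3.21 TPM in OVX8_SCI7. The last 2 places belonged to Alox12 and Alox15 in every group. In SCI7 their levels were 0.77 ± 0.56 and 0.38 ± 0.12 TPM and their ranges overlapped, whereas in OVX8_SCI7 Alox15 (0.95 to 2.28 TPM) lay wholly above Alox12 (0.73 to 0.91 TPM). In SCI7, neighbours in the order overlapped in every case but Lta4h over Hpgds and Ptgs2 over Alox12. The transcript of the membrane helper Alox5ap exceeded that of the enzyme Alox5 in TPM by 13.9 ± 8.1, 14.8 ± 9.9 and 14.3 ± 2.9 times in the 3 groups (SD, n = 4 each). Ptgs1 exceeded Ptgs2 by 6.72 ± 3.82, 12.4 ± 7.98 and 8.02 ± 3.30 times, with overlapping ranges.

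**Figure D1:**
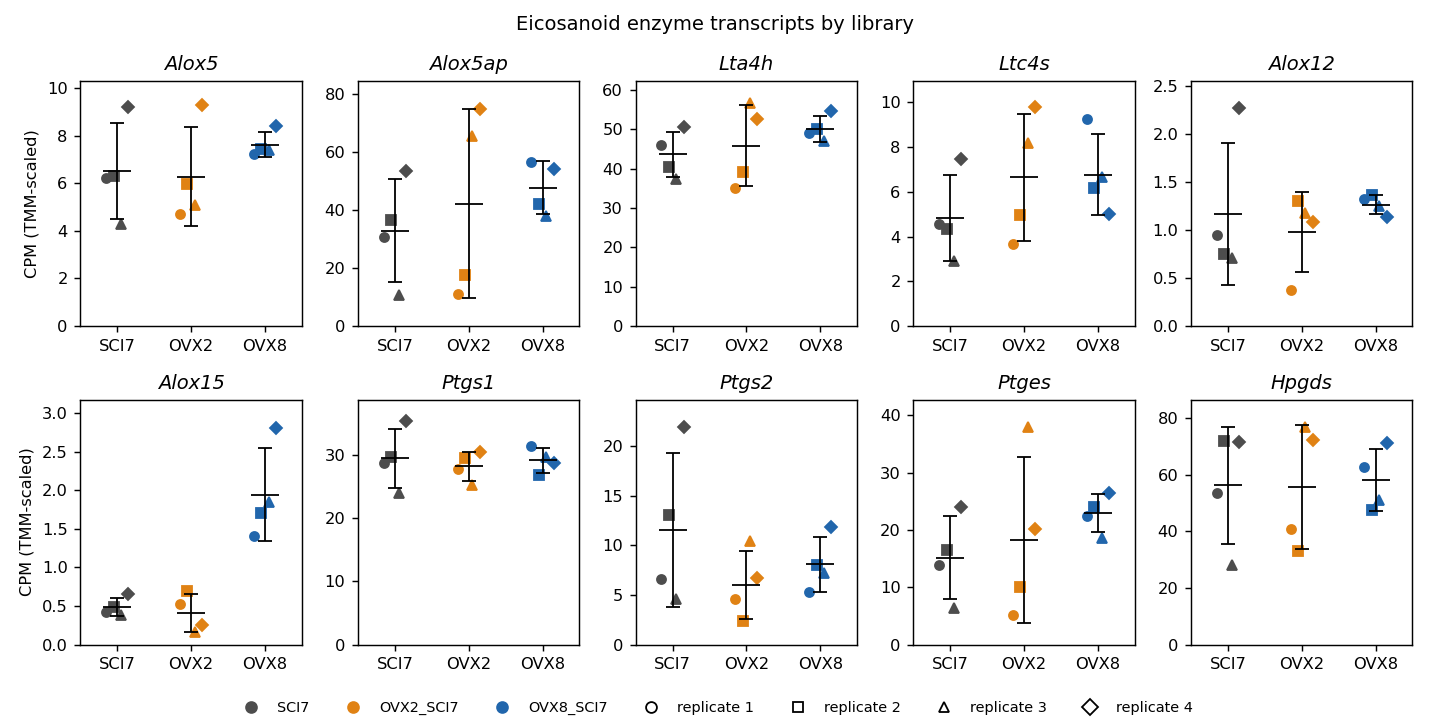
CPM of the 10 genes in the 12 libraries (y axis, linear, from 0), with 1 point for each library, a bar at the mean of each group and whiskers of 1 SD (n = 4). Alox15 is the gene whose 4 OVX8_SCI7 libraries (1.41 to 2.81 CPM) lie above all other libraries, while Alox5ap, Ptges and Hpgds spread widely within SCI7 and OVX2_SCI7. Of all genes, 19.6% lie wholly above SCI7 in OVX8_SCI7 and 0.241% wholly above OVX2_SCI7.

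Alox15, the leukocyte-type lipoxygenase that oxygenates arachidonic acid in eosinophils and some macrophages, was low in injury alone and in the 2-week group and higher in the 8-week group. Its level in SCI7 was 0.42, 0.48, 0.38 and 0.66 CPM in replicates 1 to 4, from 7 to 13 counts a library. In OVX2_SCI7 it was 0.53, 0.70, 0.16 and 0.26 CPM, from 3 to 15 counts, and in OVX8_SCI7 it was 1.41, 1.71, 1.85 and 2.81 CPM, from 32 to 55 counts. The lowest OVX8_SCI7 library was above the highest of both other groups, as it was for 19.6% of all genes against SCI7 and 0.241% against OVX2_SCI7, and the other groups overlapped each other. The fitted difference of OVX8_SCI7 from SCI7 was a log2 fold change of 1.98 (SE 0.40, 3.94-fold), and Alox15 was the 1 gene of the 10 that passed there (adjusted p = 0.01429 by edgeR's quasi-likelihood test), beside 27.5% of all 17820 genes tested. That comparison chose the gene, and Alox15 also entered the test through the OVX8_SCI7 libraries alone, since 4 of 4 of them exceeded the filter's 0.518 CPM against 1 in SCI7 and 2 in OVX2_SCI7, so nothing is read from this call or from the groups not overlapping. With the GC and length offset the value was 1.66 (SE 0.43, adjusted p = 0.1324), against a median of all genes that moved from 0.015 to -0.115, and without replicate 2 of OVX8_SCI7, the deepest library, it was 2.04 (adjusted p = 0.05728).

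Against the 2-week group, which shares the same OVX8_SCI7 libraries, the difference of Alox15 was 2.204 (SE 0.41). The OVX8_SCI7 libraries that chose the gene and took it past the filter enter here too, so this value is a description as well. Its adjusted p was 0.9993 by edgeR and 0.005049 by DESeq2, and nothing is read from the latter. No gene passed in this comparison by edgeR, with 393 of 17820 genes at an unadjusted p under 0.05 and 6 passed by DESeq2. Between OVX2_SCI7 and SCI7 the difference was -0.23 (SE 0.43, adjusted p = 0.737).

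Eosinophil transcripts were set beside Alox15, since mouse eosinophils express it. Epx, the eosinophil peroxidase, was at 0.58, 0.59, 0.27 and 0.25 CPM in SCI7, 1.17, 1.44, 0.32 and 0.78 in OVX2_SCI7 and 0.93, 1.40, 1.299 and 1.67 in OVX8_SCI7. It passed against SCI7 in OVX8_SCI7 with a log2 fold change of 1.63 (SE 0.45, adjusted p = 0.02319 by edgeR), beside the 27.5% of all genes that did. That call was lost with the GC and length offset (0.98, adjusted p = 0.3543) and without replicate 2 of OVX8_SCI7 (1.60, adjusted p = 0.06915), settings under which no gene passed. Prg2, the major basic protein of the granule, was at 1.37, 1.45, 0.27 and 0.81 CPM in SCI7, 1.17, 1.299, 0 and 1.19 in OVX2_SCI7 and 2.12, 2.86, 2.15 and 4.21 in OVX8_SCI7. All 4 OVX8_SCI7 libraries of Prg2 lay above all others, as did those of 19.6% of all genes against SCI7 and 0.241% against OVX2_SCI7. Replicate 4 was the highest, as it was for Alox15. The difference of Prg2 from SCI7, 1.53 (SE 0.69), did not pass (adjusted p = 0.1095 by edgeR). Prg2 held 0 to 28 counts a library in SCI7 and OVX2_SCI7, so nothing is read from this likeness. Siglecf, a surface lectin of eosinophils and some macrophages, overlapped between the groups. The 6 listed markers summed to 2.18 to 6.71 CPM in SCI7, 3.48 to 8.96 in OVX2_SCI7 and 7.36 to 10.6 in OVX8_SCI7. Siglecf was the largest part of the sum in every library but replicate 4 of OVX8_SCI7, for example 4.12 of 6.71 CPM in replicate 1 of SCI7. The sums are therefore not a measure of eosinophils alone. Ccr3, Il5ra and Ear6 were too low to be tested, Il5ra at 0 to 2 counts a library. The part of eosinophil number in the Alox15 values was not tested, and in bulk tissue more cells of a type and more RNA per cell cannot be told apart.

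**Figure D2:**
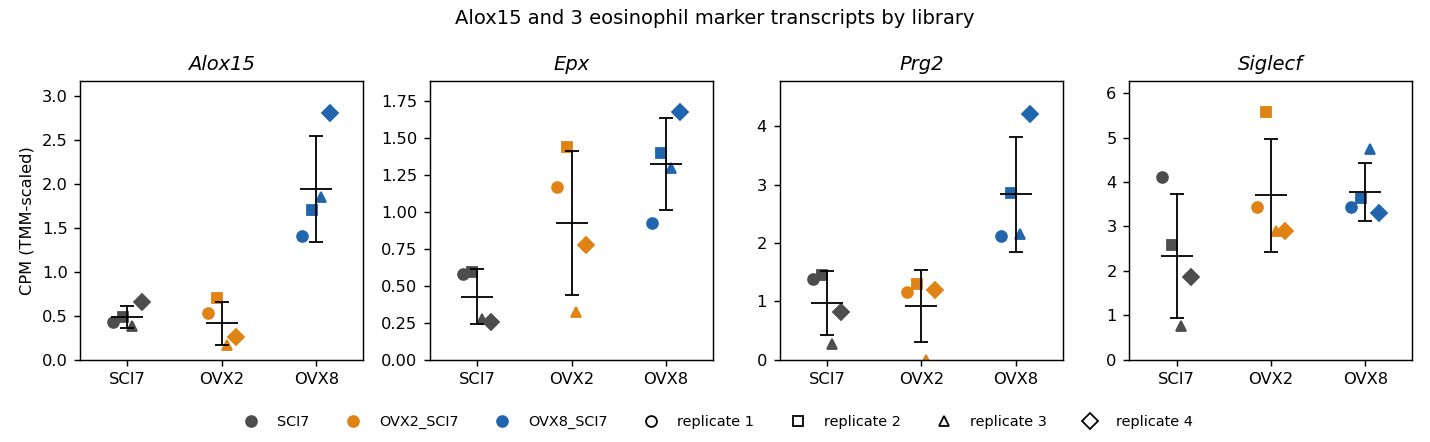
CPM (y axis, linear, from 0) of Alox15 and of the eosinophil transcripts Epx, Prg2 and Siglecf in the 12 libraries, with group means and whiskers of 1 SD (n = 4). In Alox15 and Prg2 the 4 OVX8_SCI7 libraries lie above all others, in Epx they lie above SCI7 and overlap OVX2_SCI7, and in Siglecf the groups overlap. Of all genes, 19.6% lie wholly above SCI7 in OVX8_SCI7 and 0.241% wholly above OVX2_SCI7.

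Another mouse cell that expresses Alox15 is the resident macrophage of the peritoneal cavity. Its 4 listed markers summed to 29.2 to 39.0 CPM in SCI7, 26.6 to 45.5 in OVX2_SCI7 and 28.0 to 34.1 in OVX8_SCI7. Gata6, the transcription factor that defines these cells, was at 0.71 to 3.28 CPM in SCI7, 0.11 to 3.11 in OVX2_SCI7 and 1.65 to 3.10 in OVX8_SCI7. Of the 3 that could be tested (Gata6, Icam2 and Garnl3), 0 passed in OVX8_SCI7 against SCI7 by edgeR or DESeq2, and 0 had an unadjusted p under 0.05. Timd4, the remaining marker, was too low to be tested. Whether the other transcripts came from such macrophages was not tested, so the presence of these cells is not read from the sums. The genes whose pattern over the 12 libraries lay nearest to that of Alox15, by the mean absolute difference of log2(CPM + 0.1) deviations among 14398 genes, were Kcna3 (0.51), Mlph (0.56), Gcat (0.59), Foxo6 (0.60) and Zfpm1 (0.61). They were picked for likeness to Alox15 over these same libraries, so nothing is read from their mean levels being highest in OVX8_SCI7. Kcna3, a voltage-gated potassium channel gene, was at 1.20, 1.36 and 2.36 CPM in SCI7, OVX2_SCI7 and OVX8_SCI7.

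Alox12, the platelet-type 12-lipoxygenase, was at 0.95, 0.75, 0.71 and 2.27 CPM in SCI7, 0.37, 1.299, 1.18 and 1.09 in OVX2_SCI7 and 1.32, 1.37, 1.25 and 1.13 in OVX8_SCI7. Replicate 4 of SCI7 was the highest of the 12 libraries and replicate 1 of OVX2_SCI7 the lowest, and all groups overlapped. Its difference was -0.25 (SE 0.43) in OVX2_SCI7 and 0.11 (SE 0.42) in OVX8_SCI7 against SCI7, so unlike Alox15 it did not pass, and the difference between these 2 genes was not tested. The 8 platelet and megakaryocyte markers summed to 70.7 CPM in that SCI7 replicate against 12.8 to 44.2 in the other 3. The same sum was as high, at 66.1 and 70.9 CPM, in replicates 3 and 4 of OVX2_SCI7, where Alox12 was at 1.18 and 1.09 CPM. Gp6, a collagen receptor of platelets, was at 0 to 2 counts a library.

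In the leukotriene branch none of the 4 genes passed in any of the 3 comparisons by edgeR, DESeq2, limma-voom or limma on TPM, and none had an unadjusted p under 0.05 by edgeR. In OVX2_SCI7 against SCI7, 0 of all 10 eicosanoid genes passed by edgeR, DESeq2, limma-voom or limma on TPM, and 0 had an unadjusted p under 0.05. The background in that comparison was 0% of 17820 genes by edgeR, with 5787 at an unadjusted p under 0.05 and 3701 passed by DESeq2. Over the 10 genes the median difference on the log2 scale was -0.033 in OVX2_SCI7 and 0.21 in OVX8_SCI7 against SCI7, and 0.23 between the ovariectomy groups, beside 0.038, 0.015 and -0.032 over all genes tested.

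Alox5 itself, the committing enzyme of leukotriene synthesis, ranged from 4.31 to 9.19 CPM in SCI7, 4.72 to 9.28 in OVX2_SCI7 and 7.23 to 8.42 in OVX8_SCI7. The means of 6.50 ± 2.01, 6.27 ± 2.08 and 7.62 ± 0.54 CPM (SD, n = 4 each) differed by less than the spread in the first 2 groups. Its log2 fold changes against SCI7 were -0.053 (SE 0.26) in OVX2_SCI7 and 0.23 (SE 0.26) in OVX8_SCI7, the latter -0.19 with the GC and length offset. The nearest patterns to Alox5 were those of Cap1 (0.099), Dtx4 (0.12), Umps (0.12), Ddx31 (0.12) and Cyfip1 (0.13), by the same measure as for Alox15.

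Alox5ap varied within groups far more than its enzyme partner. Its levels were 30.6, 36.5, 10.5 and 53.5 CPM in SCI7, 10.9, 17.4, 65.2 and 74.8 in OVX2_SCI7 and 56.5, 42.0, 37.9 and 54.1 in OVX8_SCI7. Replicate 3 of SCI7 and replicates 1 and 2 of OVX2_SCI7 were the 3 lowest of the 12 libraries, and the 2 highest belonged to OVX2_SCI7 as well. The difference from SCI7 was 0.36 (SE 0.58) in OVX2_SCI7 and 0.54 (SE 0.58) in OVX8_SCI7, so changes of about that size could not be told from the spread. On TPM the OVX2_SCI7 mean was the lower of the pair, with a difference of -0.29 in log2(TPM + 1), and without replicates 1 and 2 of OVX2_SCI7 the count-based value was 1.10 (adjusted p = 0.06678).

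Lta4h, the hydrolase to leukotriene B4, was among the steadiest members at 43.6 ± 5.81, 45.8 ± 10.3 and 50.1 ± 3.30 CPM in SCI7, OVX2_SCI7 and OVX8_SCI7 (SD, n = 4 each). Its differences from SCI7 were 0.072 (SE 0.16) and 0.20 (SE 0.16). Ltc4s, the synthase to cysteinyl leukotrienes, was at 4.54, 4.35, 2.89 and 7.47 CPM in SCI7, 3.66, 4.97, 8.20 and 9.80 in OVX2_SCI7 and 9.25, 6.18, 6.64 and 5.02 in OVX8_SCI7. The groups overlapped, and the differences from SCI7 of 0.47 (SE 0.35) and 0.49 (SE 0.35) did not pass. Ltc4s has the most GC-rich transcript of the 10, at 61.0%, above 96.8% of 15087 protein-coding genes, and with the GC and length offset its values turned to -0.42 in OVX2_SCI7 and -0.46 in OVX8_SCI7. In TPM, Lta4h exceeded Ltc4s by 2.89 ± 0.76 times in SCI7 and by 1.86 ± 0.61 and 1.89 ± 0.67 times in OVX2_SCI7 and OVX8_SCI7 (SD, n = 4 each), with overlapping ranges.

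**Figure D3:**
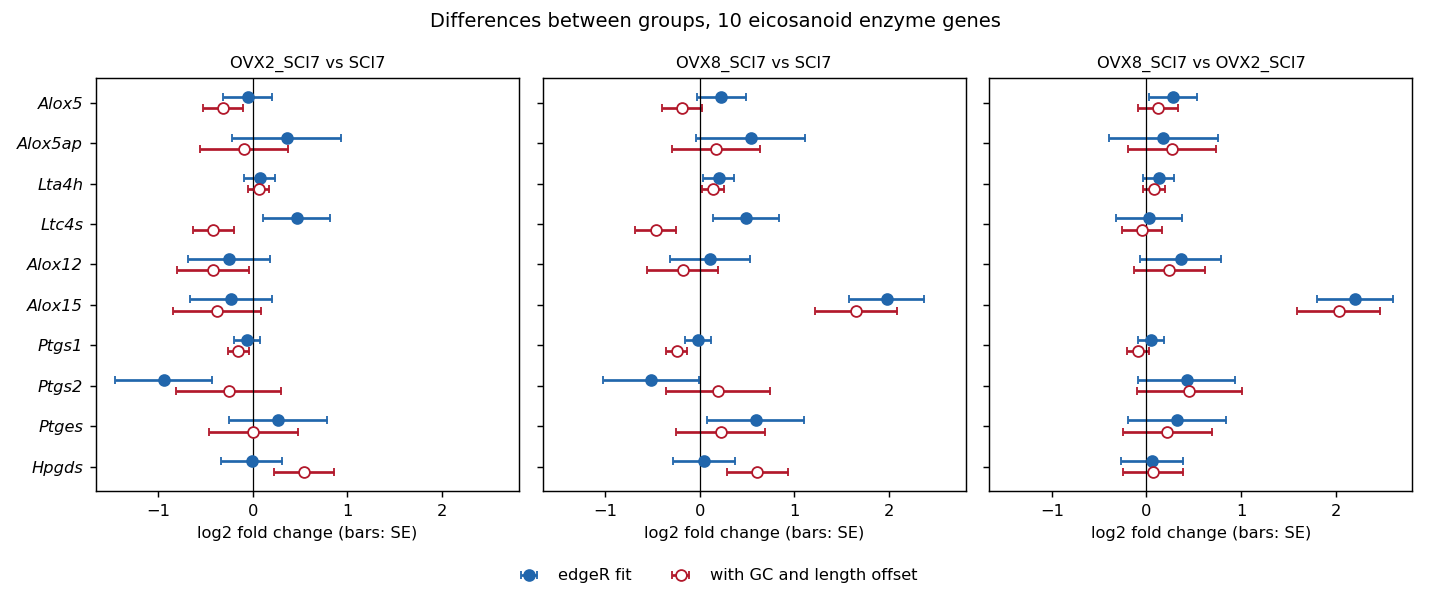
Log2 fold changes of the 10 genes (x axis, bars of 1 SE) in 3 comparisons of groups of 4 libraries, from the edgeR fit (filled blue) and with the GC and length offset (open red). Alox15 stands apart in both comparisons of OVX8_SCI7, at 1.98 and 2.204 (1.66 and 2.03 with the offset), while the offset changes the sign of Ltc4s in all 3 comparisons, of Alox5ap and Hpgds in OVX2_SCI7 against SCI7, of Alox5, Alox12 and Ptgs2 in OVX8_SCI7 against SCI7, and of Ptgs1 between the ovariectomy groups.

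Of the prostanoid branch, Ptgs1, the constitutive cyclooxygenase, was the steadiest gene, at 24.0 to 35.3 CPM in SCI7, 25.2 to 30.5 in OVX2_SCI7 and 26.8 to 31.4 in OVX8_SCI7. Its differences from SCI7 were -0.061 (SE 0.14) and -0.016 (SE 0.14). Ptgs2, the inducible cyclooxygenase, spread more widely. It was at 6.60, 13.1, 4.63 and 21.9 CPM in SCI7, 4.56, 2.37, 10.4 and 6.74 in OVX2_SCI7 and 5.29, 7.98, 7.24 and 11.8 in OVX8_SCI7. Replicate 4 was the highest in SCI7 and in OVX8_SCI7, and all groups overlapped. The difference from SCI7 was -0.94 (SE 0.51, adjusted p = 0.218 by edgeR) in OVX2_SCI7, the largest in size of any member there, and -0.52 (SE 0.51) in OVX8_SCI7. Ptgs2 has the most AT-rich transcript of the 10 (GC content 40.02%, above 5.27% of protein-coding genes), and with the GC and length offset the OVX8_SCI7 value was 0.20.

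Ptges, the inducible synthase of prostaglandin E2, was at 13.9, 16.4, 6.32 and 24.1 CPM in SCI7, 5.14, 10.02, 37.9 and 20.2 in OVX2_SCI7 and 22.5, 24.0, 18.6 and 26.5 in OVX8_SCI7. Its lowest libraries were the same 3 as those of Alox5ap, and its pattern over the 12 libraries lay close to that of Alox5ap (mean absolute difference 0.21 on the log2 scale, with only Lta4h beside Ptgs1, 0.18, and Alox5 beside Lta4h, 0.19, closer among the members). The differences of Ptges from SCI7 were 0.27 (SE 0.52) in OVX2_SCI7 and 0.59 (SE 0.52) in OVX8_SCI7, and neither passed. Hpgds, the synthase of prostaglandin D2 in microglia, macrophages and mast cells, was at 53.5, 71.9, 28.0 and 71.7 CPM in SCI7, 40.9, 33.2, 76.9 and 72.2 in OVX2_SCI7 and 62.7, 47.5, 51.2 and 71.3 in OVX8_SCI7. Its 3 lowest libraries were again replicate 3 of SCI7 and replicates 1 and 2 of OVX2_SCI7. The group means of 56.3 ± 20.7, 55.8 ± 21.9 and 58.2 ± 10.9 CPM (SD, n = 4 each) lay far inside that spread, with differences from SCI7 of -0.013 (SE 0.32) and 0.048 (SE 0.32). The Hpgds transcript is also AT-rich (GC content 42.1%), and with the offset these values were 0.54 and 0.61. Mast cells were barely represented, since only Kit and Hdc of their 8 listed markers were high enough to be tested.

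The libraries low in Alox5ap, Ptges and Hpgds were also low in the transcripts of several cell types. Of the 17 cell type lists, 4 had their 3 smallest sums in these libraries, those of macrophages, microglia (944.4 to 1548 CPM against 1744 to 2321 in the other 9), fibroblasts and meninges (934.5 to 2337 against 4656 to 27542) and platelets (12.8 to 26.0 against 30.3 to 70.9). Neuronal markers went the other way, at 2871 to 4070 CPM against 809.7 to 2906, with 2 of the 3 libraries the highest. In the lists of astrocytes, oligodendrocytes, Schwann cells, mast cells and resident peritoneal-type macrophages 2 of the 3 libraries were likewise among the highest. For mast cells 1 of the 3 was among the lowest as well. The 10 monocyte and macrophage markers summed to 3060, 3507, 452.0 and 4153 CPM in SCI7, 1001, 1335, 10116 and 7487 in OVX2_SCI7 and 6802, 4623, 4575 and 7529 in OVX8_SCI7. Lyz2, the lysozyme of myeloid cells, made up most of each sum, with group means of 2314, 4312 and 5058 CPM, and Cd68, a lysosomal protein of macrophages, added 220.3, 391.1 and 510.5. The sums thus follow Lyz2 more than the list as a whole. Of the 10 log2 fold changes from SCI7, 5 were positive and 5 negative in each ovariectomy group. Their medians were 0.039 in OVX2_SCI7 and -0.042 in OVX8_SCI7. None of the 10 markers passed between groups in any of the 3 comparisons by edgeR or DESeq2, and 0, 0 and 1 had an unadjusted p under 0.05 by edgeR. Alox5 was lowest in replicate 3 of SCI7 (4.31 CPM) and was at 4.72 and 5.99 CPM in replicates 1 and 2 of OVX2_SCI7. It was also low (5.09 CPM) in replicate 3 of OVX2_SCI7, which had the highest macrophage sum. The part of macrophage content, or of the other cell types, in these values was not tested.

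**Figure D4:**
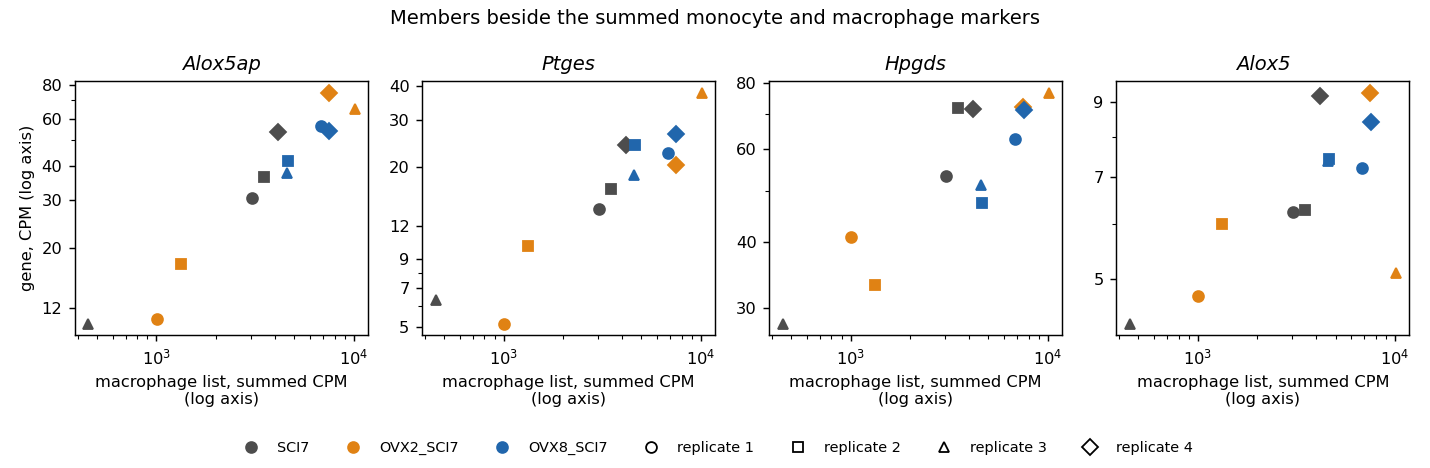
CPM of Alox5ap, Ptges, Hpgds and Alox5 (y axis, log scale) against the summed CPM of 10 monocyte and macrophage markers (x axis, log scale) in the 12 libraries, which share their depth and composition. For Alox5ap, Ptges and Hpgds the 3 libraries with the smallest macrophage sums (452.0 to 1335 CPM) are the 3 lowest. Alox5 is at 4.31, 4.72 and 5.99 CPM in those 3 libraries and at 5.09 CPM in the library with the largest sum.

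Around the 10 enzymes, 57 other genes of the pathway were listed by role, of which 56 were found and 49 were high enough to be tested. In OVX8_SCI7 against SCI7, 12 of the 49 passed, 7 higher and 5 lower, beside 27.5% of all genes (11.9% higher and 15.6% lower), so the share was close to the background. The median of the 49 log2 fold changes was 0.30, beside 0.015 over all genes. In OVX2_SCI7 against SCI7, 0 passed by edgeR (14 at an unadjusted p under 0.05), 10 by DESeq2, 4 by limma-voom and 0 by limma on TPM. Without replicate 1 of OVX2_SCI7 that count was 13. Between the ovariectomy groups 0 passed by each of the 4 tests, and 0 had an unadjusted p under 0.05. None of the 12 calls was made with the GC and length offset, under which 0% of 17448 genes passed. Leaving out 1 library moved the count of 12 to 0 when OVX8_SCI7 lost its replicate 2, to 4 when it lost replicate 3, to 5 when it lost replicate 1, and to 3 when SCI7 lost its replicate 2.

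Of the genes of prostaglandin transport and breakdown 2 of 5 fell and 0 rose, beside 15.6% of all genes lower and 11.9% higher. Such counts of a few genes by role, here and below, are given as a description. The difference of Hpgd was the largest in size of the 12. Hpgd, which encodes the 15-hydroxyprostaglandin dehydrogenase that inactivates prostaglandins, was at 103.8 ± 20.1 CPM in SCI7, 47.1 ± 23.1 in OVX2_SCI7 and 39.5 ± 5.06 in OVX8_SCI7 (SD, n = 4 each). The 4 OVX8_SCI7 libraries (34.3 to 44.8 CPM) lay below the 4 of SCI7 (86.0 to 121.8 CPM), as did those of OVX2_SCI7 (26.7 to 80.3 CPM), and 19.6% and 6.29% of all genes lay wholly below SCI7 in this way. The log2 fold change of OVX8_SCI7 was -1.40 (SE 0.29, adjusted p = 0.01429 by edgeR). Ptgr2, a reductase acting on the next intermediate, was at 100.9 ± 9.14 CPM in SCI7, 68.9 ± 17.7 in OVX2_SCI7 and 59.8 ± 3.57 in OVX8_SCI7. The last differed from the first by -0.76 (SE 0.17) on the log2 scale. With the offset both kept a negative value without passing, Hpgd at -0.71 (adjusted p = 0.1572) and Ptgr2 at -0.35 (adjusted p = 0.1667).

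Among the other prostanoid synthases 3 of 7 rose and 1 fell, beside 11.9% and 15.6% of all genes. Ptges2, a membrane-associated prostaglandin E synthase, went from 12.1 ± 1.32 CPM in SCI7 to 19.6 ± 3.28 in OVX8_SCI7, a log2 fold change of 0.70 (SE 0.17), whereas Ptges3, the cytosolic form and Hsp90 partner p23, went from 140.7 ± 24.4 to 84.1 ± 7.46 CPM, a change of -0.74 (SE 0.17). Both forms had values of the same sign with the offset, at 0.17 and -0.31. Cbr1, a carbonyl reductase that converts prostaglandin E2 (0.70, SE 0.21), and Prxl2b, a prostamide and prostaglandin F synthase (0.92, SE 0.25), also rose, and were singled out after their values were seen. With the offset the value of Cbr1 was 0.25 and that of Prxl2b 0.043, so little of the latter was left.

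Of 11 arachidonate-releasing genes 1 rose, beside 11.9% of all genes. It was the calcium-independent phospholipase gene Pla2g6, which went from 14.7 ± 1.304 to 24.1 ± 5.28 CPM (0.71, SE 0.18). With the offset its value was -0.075, so its direction was not kept. Pla2g4a, the cytosolic phospholipase that feeds both branches, did not pass and was at 41.2 ± 10.6 CPM in SCI7, 26.1 ± 6.37 in OVX2_SCI7 and 29.5 ± 4.90 in OVX8_SCI7. None of the 3 other lipoxygenase genes tested passed in OVX8_SCI7 against SCI7 by edgeR or DESeq2, with 0 at an unadjusted p under 0.05, and Alox8 stood at 4.49 ± 1.84, 4.90 ± 3.04 and 3.85 ± 0.94 CPM and Aloxe3 at 0.96 ± 0.29, 1.21 ± 0.57 and 1.10 ± 0.22 CPM in SCI7, OVX2_SCI7 and OVX8_SCI7. In leukotriene conversion 1 of 9 rose, beside the same 11.9% of all genes. It was the gamma-glutamyltransferase gene Ggt5 that acts on leukotriene C4, which went from 10.9 ± 1.29 to 17.1 ± 1.84 CPM (0.65, SE 0.17). With the offset the value of Ggt5 was 0.41. Mgst2, a microsomal transferase able to make leukotriene C4, was at 0.79 ± 0.22 CPM in SCI7 and 0.88 ± 0.27 in OVX8_SCI7.

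Receptors of prostanoids moved in both directions, with 2 of 8 up and 1 down, beside 11.9% and 15.6% of all genes. Tbxa2r, the thromboxane receptor, was at 1.301 ± 0.36 CPM in SCI7, 2.45 ± 0.86 in OVX2_SCI7 and 2.88 ± 1.20 in OVX8_SCI7 (1.15, SE 0.36 for the last against the first), and Ptger4, a prostaglandin E2 receptor, at 4.39 ± 0.93, 7.73 ± 1.26 and 7.46 ± 1.29 CPM (0.77, SE 0.21). Ptgfr, the receptor of prostaglandin F2 alpha, fell from 6.54 ± 1.34 CPM in SCI7 to 3.86 ± 1.01 in OVX8_SCI7 (-0.76, SE 0.26), close to the threshold at an adjusted p of 0.04946 by edgeR. With the offset these 3 values were 0.14, 0.54 and -0.033. Of the receptors for leukotrienes and other lipid mediators 1 of 6 fell, beside 15.6% of all genes. It was the formyl peptide and lipoxin receptor gene Fpr2, which went from 1.04 ± 0.15 to 0.39 ± 0.18 CPM (-1.37, SE 0.43, and -1.04 with the offset). Cysltr1, the cysteinyl leukotriene receptor, was at 7.28 ± 2.17, 4.26 ± 1.24 and 4.53 ± 1.44 CPM in the 3 groups and did not pass, and Ptgdr2, a prostaglandin D2 receptor of eosinophils and T cells, was at 0 to 7 counts a library and was not tested.

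**Figure D5:**
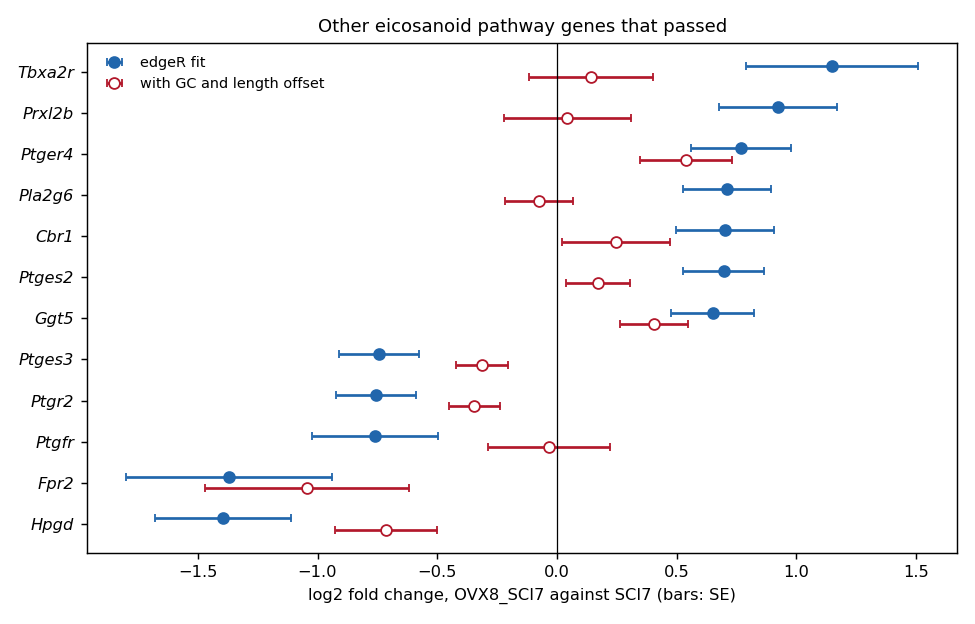
Log2 fold changes in OVX8_SCI7 against SCI7 (x axis, bars of 1 SE, 4 libraries a group) of the 12 other pathway genes that passed, from the edgeR fit (filled blue) and with the GC and length offset (open red). Hpgd (-1.40, -0.71 with the offset) and Fpr2 (-1.37, -1.04) keep the largest negative values, Ptger4 has the largest positive one with the offset (0.54, from 0.77), and Pla2g6 goes from 0.71 to -0.075.

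Markers of other cells that the tissue could hold give the setting of these values. Microglial markers summed to 944.4 to 1897 CPM in SCI7, 1451 to 2321 in OVX2_SCI7 and 1765 to 2040 in OVX8_SCI7. Of the 8 listed, 7 were found, and 3 of 7 passed in OVX8_SCI7 against SCI7 by edgeR, beside 27.5% of all genes and in both directions. P2ry12, a purine receptor of homeostatic microglia, fell (-1.14, SE 0.32), and Tmem119 (1.07, SE 0.30), a microglial membrane protein, and Csf1r (0.70, SE 0.18), the receptor for macrophage colony-stimulating factor, rose. With the offset none of the 3 passed, at -0.24, 0.27 and 0.21. Neutrophil markers summed to 81.5 to 99.9, 39.0 to 97.6 and 55.7 to 93.2 CPM in the same order. Fibroblast and meningeal markers ranged most widely, at 1080 to 7380, 934.5 to 27542 and 7953 to 15050 CPM. Spinal cord identity was plain in all libraries, with astrocyte markers at 5798 to 13379 CPM and oligodendrocyte markers at 13613 to 33030 CPM over all 12.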

How the data were processed

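Total RNA of 12 spinal cord lesions in 3 labelled groups of 4 was sequenced with paired ends. Per the submitters' processing notes, fastp 0.23.4, HISAT2 2.2.1, RSEM 1.3.3, DESeq2 1.42.0, edgeR and limma were used with GRCm39, and the library kit and the use of strand are not given in the sources used here. The authors deposited expected counts, rounded here to whole numbers, with TPM and FPKM tables deposited beside them. The 9 value columns that match no sample were not used. Genes without a symbol held 0.0786 to 0.158% of counts and stayed in the tests.

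Counts were fitted with edgeR 4.0.16 in R 4.3.3 (filterByExpr, TMM, 1 fit of 12 libraries, robust quasi-likelihood F-test, Benjamini-Hochberg adjustment over 17820 genes, threshold 0.05). The script was tested on simulated counts. CPM use TMM-scaled library sizes, SE is the absolute log2 fold change over the root of F, and p-values measure only the spread between these samples. The offset is a spline on GC content and length from an older annotation (GRCm38), for 17448 genes. Other settings used limma 3.58.1 and DESeq2 1.42.0.

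The 10 genes, 7 pathway lists and 17 cell type lists were chosen with earlier results of these data known. Named are the members, the 2 genes of each pathway list with the smallest joint p and those that passed in lists with at most 3 such, and the 5 genes nearest in pattern to Alox15 and to Alox5 (mean of at least 1 CPM). Cbr1, Prxl2b, Ptgdr2 and single cell type markers fall outside this rule and were chosen after their values were seen.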

Additional observations from a re-analysis of the deposited data

Results flagged for a closer look

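Alox12 in SCI7 held a library far from the others of its group. Replicate 4 stood at 2.27 CPM while the remaining 3 lay between 0.71 and 0.95, and the gap took a share of 0.85 of the group's range, above Dixon's critical value for 4 samples. Chance alone takes about 1 in 20 groups past that value, and 30 groups were examined, 10 genes in 3 groups. Nothing is therefore read from 1 such group. Without that library the difference of Alox12 from SCI7 was 0.29 in OVX2_SCI7 and 0.66 in OVX8_SCI7, and neither passed by edgeR.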

How the results depend on the processing

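No member passed in OVX2_SCI7 against SCI7 under any of the 23 other settings. In OVX8_SCI7 against SCI7 the 1 member that passed, Alox15, became 0 under the stricter filter, which did not keep the gene, with the GC and length offset, with the replicate block and offset together, and without replicate 2 of OVX8_SCI7 (range 0 to 1 when leaving out each library). Between the ovariectomy groups the count of 0 became 1 with DESeq2. The replicate numbers did not pair the samples (correlations of same-numbered deviations -0.60 to 0.47), and with the replicate block 0, 1 and 0 members passed in the 3 comparisons, while the count of all genes in OVX8_SCI7 against SCI7 went from 4893 to 3390. That count was 0 with the offset, 3257 without a filter, 3000 on TPM, 7426 in the 8 libraries alone and 0 to 6710 without single libraries. In OVX2_SCI7 against SCI7 the count of all genes went from 0 to 3701 with DESeq2, 893 with limma-voom, 1144 with the stricter filter, 14 without a filter, 16 on TPM, 2 in the 8 libraries alone, 8 with the offset, 6264 without replicate 1 of OVX2_SCI7 and 7141 without its replicates 1 and 2. The other pathway genes that passed there went from 0 to 5 with the stricter filter, 10 with DESeq2, 4 with limma-voom and 16 without both replicates.

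Several log2 fold changes of members that did not pass changed sign, and the cause was not tested. With the offset in OVX2_SCI7 against SCI7 they were -0.090 for Alox5ap, -0.42 for Ltc4s and 0.54 for Hpgds. In OVX8_SCI7 against SCI7 they were -0.19 for Alox5, -0.46 for Ltc4s, -0.18 for Alox12 and 0.20 for Ptgs2, and -0.075 for the pathway gene Pla2g6. Between the ovariectomy groups they were -0.046 for Ltc4s and -0.091 for Ptgs1. With the replicate block and offset the same comparisons gave -0.16 for Alox5ap, -0.40 for Ltc4s, -0.12 for Ptges and 0.52 for Hpgds, then -0.17 for Alox5, -0.43 for Ltc4s, -0.087 for Alox12, 0.32 for Ptgs2 and -0.076 for Pla2g6, then -0.036 for Ltc4s and -0.086 for Ptgs1. On TPM in OVX2_SCI7 against SCI7, Alox5ap was -0.29, Lta4h -0.069, Ptges -0.34 and Hpgds 0.099. Hpgds was 0.0036 in the 8 libraries alone. Ptgs1 in OVX8_SCI7 against SCI7 was 0.032 without a filter. Without replicates 1 and 2 of OVX2_SCI7, Alox5 was 0.15 and Hpgds 0.41 against SCI7, and OVX8_SCI7 against the other 2 replicates gave -0.55 for Alox5ap, -0.12 for Lta4h, -0.41 for Ltc4s, -0.085 for Ptgs2, -0.34 for Ptges and -0.36 for Hpgds.

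Leaving out each library in turn gave signs of both kinds in OVX2_SCI7 against SCI7 for Alox5 (-0.29 to 0.16), Alox5ap (-0.064 to 0.70), Lta4h (-0.043 to 0.16), Alox12 (-0.44 to 0.29), Alox15 (-0.60 to 0.032), Ptgs1 (-0.16 to 0.039), Ptges (-0.36 to 0.58) and Hpgds (-0.25 to 0.18). The same held in OVX8_SCI7 against SCI7 for Alox12 (-0.072 to 0.66), Ptgs1 (-0.11 to 0.086) and Hpgds (-0.18 to 0.19), and between the ovariectomy groups for Alox5ap (-0.13 to 0.60), Ltc4s (-0.17 to 0.25), Ptgs1 (-0.0024 to 0.087) and Hpgds (-0.14 to 0.26). Alox15 stayed between 1.76 and 2.16 in OVX8_SCI7 against SCI7. Of the values of single genes under settings that left out no single library, 35 calls were lost with the direction kept and 1 was gained. The order of the 10 levels was the same in FPKM as in TPM in each group. Within a library these measures differ only by a constant factor, so nothing is read from this likeness. At 3 to 15 counts a library, Alox15 in SCI7 and OVX2_SCI7 lies near the limit of this depth.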

Other observations

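Skeletal muscle and lymphocyte transcripts also differed by library. The 6 muscle markers summed to 3.58 to 14.9 CPM in SCI7, 1.96 to 16.4 in OVX2_SCI7 and 4.94 to 64.0 in OVX8_SCI7, and 2 of the 6, Actn3 and Myh4, rose in OVX8_SCI7 against SCI7 by edgeR, beside 11.9% of all genes. The 8 lymphocyte markers summed to 1.20 to 2.88, 4.08 to 11.5 and 4.81 to 6.39 CPM, and 1 of the 3 tested, Cd8a, rose in the same comparison. None of these 3 calls was made with the GC and length offset or without replicate 2 of OVX8_SCI7, settings under which no gene passed in that comparison. In OVX2_SCI7 against SCI7, Cd8a did pass with the offset (4.13, adjusted p = 0.02817 by edgeR), where 8 of 17448 genes passed. In SCI7 its level is only a part of the 1.20 to 2.88 CPM of all 8 markers. The value thus starts from a low level, and nothing is read from its size. Without the offset 0 of the 3 lymphocyte genes passed in OVX2_SCI7 against SCI7 by edgeR. All 3 had an unadjusted p under 0.05, as had 5787 of all 17820 genes. Endothelial markers summed to 231.1 to 449.8, 265.2 to 438.9 and 325.4 to 394.4 CPM in SCI7, OVX2_SCI7 and OVX8_SCI7. In OVX8_SCI7 against SCI7, 0 of 5 passed by edgeR or DESeq2, with 2 at an unadjusted p under 0.05.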
